A study of Homo sapiens with 17 samples.

Results

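The zinc finger genes of chromosome 19 were taken as the protein-coding genes of GENCODE 44 that lie on this chromosome and carry the symbol ZNF followed by a number. They made up 240 of 20046 protein-coding genes and 240 of the 1476 on chromosome 19, while 236 genes with such a symbol lay on other chromosomes. Each gene was represented at each time point by the transcript with the highest summed count. Of the 240 members, 234 were listed with a coding length at 36 h and 238 at 72 h, and 230 and 238 of them had a count in at least 1 library.

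The measurements came from HEK293 cells, an immortalized human embryonic kidney line, that were electroporated with Cas9 or with the catalytically inactive dCas9. Both proteins were loaded with the same guide, sgIntron, which targets an intron of JAK2, so that the dCas9 cells received guide and protein without a cut. Ribosome footprints, the mRNA fragments protected by translating ribosomes, and total mRNA were sequenced after 36 h and after 72 h. There were 3 Cas9 and 2 dCas9 mRNA libraries and 2 footprint libraries of each nuclease at 36 h, and 2 libraries of each kind at 72 h, 17 in all.

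Several electroporations were pooled for each replicate, and the guides were synthetic at 36 h and transcribed in vitro at 72 h. Because guide preparation, aligner and annotation changed with time, they and the time point cannot be told apart. Nothing in the labels says that replicates came from separate cell stocks, so the P values measure the spread between these libraries only. The markers VIM and LIN28B were present in the dCas9 mRNA libraries at 36 h, at 1003 ± 57.7 CPM and 56.4 ± 8.58 CPM (counts scaled to a common library size, SD, n = 2). KRT18 averaged 55.1 CPM, NEFM 9.44 CPM and KRT8 6.17 CPM in the same libraries. Of the kidney marker PAX2, no dCas9 mRNA library held more than 0.280 CPM. Among markers of other cells, HBB was at 0 in all 4. The fibroblast marker COL1A1 averaged 7.43 CPM in dCas9 mRNA at 36 h, above KRT8. GFAP averaged 0.624 CPM, PTPRC 0.375 CPM and ALB 0.119 CPM there. In such bulk samples, fewer cells and less RNA per cell cannot be told apart.

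Zinc finger proteins of the C2H2 class bind DNA through small domains in which a pair of cysteines and a pair of histidines hold a zinc ion. Most of those on chromosome 19 also carry a KRAB domain, which recruits the scaffold protein TRIM28 and, through it, enzymes that deposit repressive histone marks. The genes arose by repeated tandem duplication, sit in clusters, and are known for the silencing of transposable elements. Their mRNAs are generally scarce, and their long arrays of similar fingers make short reads hard to assign to a single gene.

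Most members had sequence features in common, which are not independent of the choice of genes by ZNF symbol and chromosome. With clusters separated by gaps of over 1 Mb, the 240 genes fell into 16 clusters, of which the largest held 57, 39 and 37 genes. The finger pattern was 2 cysteines, a loop of 12 residues and 2 histidines, and only the transcript used for each gene was translated and scanned. It occurred a median of 12 times per transcript and at most 39 times, and in 3 members there was no match. These 3 were represented by short coding sequences, ZNF738 with 117 codons, ZNF83 with 79 and ZNF415 with 73, and their other transcripts were not scanned. A KRAB-like motif was found in the first 250 residues of 189 members. Coding GC content had a median of 41.9% in the members (range 35.5 to 75.0%), against 48.0% in the ZNF genes of other chromosomes, 62.1% in the other genes of chromosome 19 and 52.9% in all protein-coding genes. It was under 40% in 58 members, between 40 and 50% in 142, and 50% or higher in 40. A median of 9.38% of the stretches of 28 bases, about the length of a footprint, in a member's coding sequence also occurred in the coding sequence of another gene, and in 60 members this share was 30% or more.

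The repeated unit of these genes is given here for members whose footprints or mRNA the results turn on. Each line is 1 finger followed by its linker, 84 coding bases on hg38 from the GENCODE 44 transcript, with the 5 codons of the linker TGEKP or TGERP in capitals. All stretches lie in the last coding exon. ZNF43 is at chr19:21809014-21809097 (minus strand), ZNF266 at chr19:9414124-9414207 (minus strand), ZNF460 at chr19:57291127-57291210 (plus strand), ZNF296 at chr19:45072255-45072338 (minus strand), ZNF417 at chr19:57909141-57909224 (minus strand) and ZNF587 at chr19:57859466-57859549 (plus strand).
ZNF43: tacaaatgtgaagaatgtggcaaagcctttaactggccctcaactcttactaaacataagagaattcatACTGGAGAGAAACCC
ZNF266: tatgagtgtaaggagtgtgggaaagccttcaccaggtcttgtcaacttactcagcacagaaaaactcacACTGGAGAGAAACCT
ZNF460: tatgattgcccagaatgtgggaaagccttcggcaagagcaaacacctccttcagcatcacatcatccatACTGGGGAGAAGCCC
ZNF296: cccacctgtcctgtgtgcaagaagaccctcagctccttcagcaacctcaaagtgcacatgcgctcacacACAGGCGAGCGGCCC
ZNF417: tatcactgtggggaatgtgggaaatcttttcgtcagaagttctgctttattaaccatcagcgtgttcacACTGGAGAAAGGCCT
ZNF587: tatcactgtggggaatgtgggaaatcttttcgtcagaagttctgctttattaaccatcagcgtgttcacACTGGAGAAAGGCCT

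The GC content of these stretches rose from 39.3% in ZNF43 through 45.2% in ZNF266 and 51.2% in ZNF460 to 60.7% in ZNF296. ZNF43 and ZNF266 shared 58 of the 84 bases, and ZNF43 and ZNF296 shared 38. ZNF417 and ZNF587, neighbours in the last cluster, were identical at all 84 bases, and 79.4% of the 28-base stretches of ZNF417 recurred in ZNF587. A read from such a stretch fits both genes, and how it was assigned is not given in the sources used here. The counts of ZNF417 and ZNF587 are therefore uncertain. At 72 h, ZNF587 mRNA stood at 85.6 and 93.8 CPM in Cas9 and at 74.4 and 85.7 CPM in dCas9. ZNF417 mRNA stood at 78.7 and 88.4 CPM and at 70.0 and 76.4 CPM in the same libraries. In ZNF417 the groups did not overlap, while in ZNF587 the lower Cas9 and the higher dCas9 library were nearly equal.

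The median zinc finger gene of chromosome 19 lay below the median of all genes in both readouts, further in footprints than in mRNA. Libraries held between 689636 and 4868580 counted footprints at 36 h and 3183555 to 8864461 at 72 h, and between 25095505 and 42825667 mRNA reads, over 1 transcript per gene. The members received 0.338 to 0.428% of the mRNA counts and 0.188 to 0.226% of the footprint counts of a library. The shallowest library, dCas9 footprints e at 36 h, held 1462 counts over all members, and 107 members had none in it. In the other 3 footprint libraries of that time, 19 to 85 members were at 0, against 2 to 9 at 72 h.

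Levels between genes were compared per kb of coding sequence. The median member with any count had 6.68 CPM per kb of mRNA at 36 h (223 members) and 7.05 at 72 h (232 members), against 12.8 and 10.5 for all genes with a count. In footprints the median was 3.01 CPM per kb at 36 h (222 members) and 3.35 at 72 h (238 members), against 13.7 and 10.1 for all genes. The member median thus lay at percentile 38.7 and 43.8 of all genes in mRNA and at percentile 22.7 and 31.9 in footprints. The ZNF genes of other chromosomes lay between, at 5.08 and 4.55 CPM per kb of footprints and at 10.7 and 9.47 of mRNA. The other genes of chromosome 19 were at 22.5 and 13.1 CPM per kb of footprints. In mRNA these other genes were at 11.9 CPM per kb at 36 h and at 6.93 at 72 h, slightly below the members at 72 h.

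A few members were abundant. ZNF146, whose protein consists almost entirely of fingers, had the highest mean mRNA level of all members, 144 CPM per kb at 36 h and 191 at 72 h, or percentile 92.9 and 95.5 of all genes. It was followed, over the mean of both times, by ZNF428 with 105, ZNF121 with 92.4, ZNF460 with 65.5 and ZNF358 with 53.1 CPM per kb. In footprints per length, ZNF580 stood highest, at 168 CPM per kb at 36 h and 124 at 72 h, although its mRNA reached only 37.8 and 14.3 CPM per kb. ZNF580 overlaps its neighbour ZNF581 on the same strand, but their coding sequences share no 28-base stretch.

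**Figure D1:**
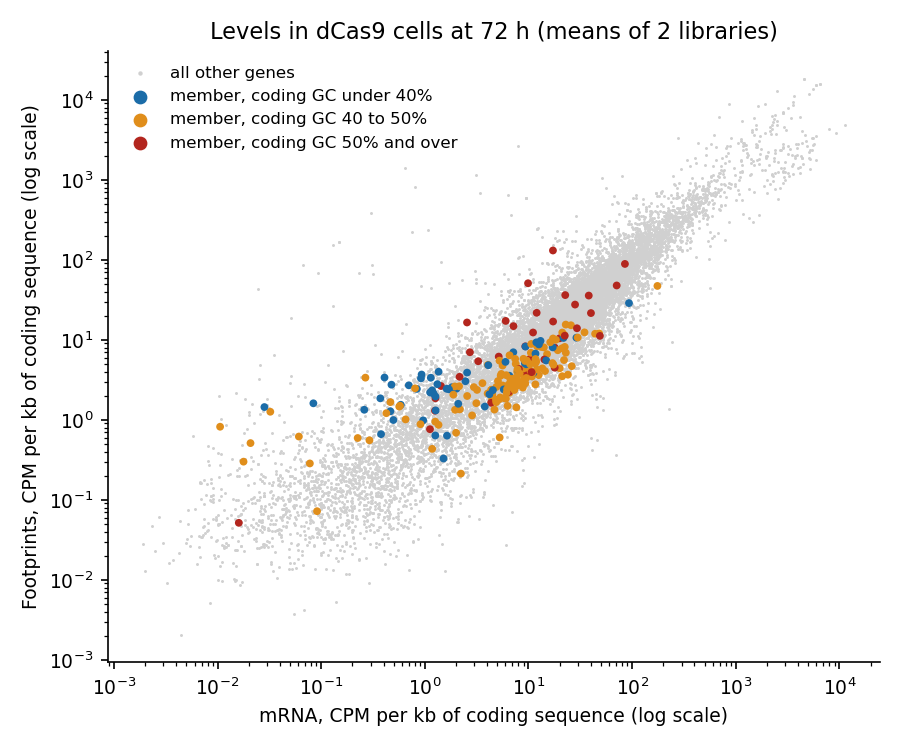
Each point is a gene, with its mean mRNA level (x axis) and mean footprint level (y axis) in the dCas9 libraries at 72 h, in CPM per kb of coding sequence on log scales, n = 2 libraries for each. The 230 members above 0 in both are coloured by coding GC content. Above about 5 CPM per kb of mRNA, most members under 50% GC lie in the lower part of the grey cloud of other genes, while members with little mRNA, and many at 50% GC or above, lie in its middle or upper part.

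Footprints relative to mRNA were compared within the dCas9 cells, where no cut was made. The value is the log2 ratio of normalized footprints to normalized mRNA, so that 0 is near the average gene, and footprint and mRNA libraries were prepared by different protocols. At 72 h, 174 of the 240 members reached a mean count of 20 in both library types. Of these, 115 had fewer footprints than mRNA and 27 had more at a false discovery rate of 0.1, where 37.8% of all 10896 tested genes were decreased and 32.7% increased (edgeR quasi-likelihood test). The decreased members were 66.1% of those tested and the increased 15.5%. The median member was at -0.80, which was 0.75 below the median of all genes, and with no count minimum, over 238 members, the difference was -0.51. The ZNF genes of other chromosomes lay 0.77 below all genes, and the other genes of chromosome 19 lay 0.50 above.

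At 36 h, 70 members reached the minimum, 21 decreased and 9 increased, against 24.6% and 23.6% of all 9016 genes. The median member lay 0.37 below all genes (0.44 below with no minimum, 230 members). Without dCas9 footprints d, the deeper of the pair, 35 members remained and the difference was -0.10.

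The lowest ratio at 72 h was that of ZNF266, a finger protein of cluster 2. Its mRNA stood at 35.1 and 41.4 CPM in dCas9 and its footprints at 6.09 and 5.56 CPM, a log2 ratio of -2.58 (SE 0.19, adjusted P = 8.24e-09, edgeR). ZNF45, with mRNA at 41.3 and 42.9 CPM, had footprints at 7.73 and 6.24 CPM and a ratio of -2.47 (SE 0.17, adjusted P = 3.63e-09, edgeR). ZNF473, a part of the machinery that processes histone mRNA ends, had mRNA at 67.4 and 66.3 CPM but footprints at 13.97 and 9.98 CPM, a ratio of -2.36 (SE 0.17, adjusted P = 5.38e-09, edgeR). These 3 genes were chosen for the lowest ratios in these same libraries, so the gap between their footprints and mRNA followed from that choice.

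At the other end stood ZNF43, ZNF580 and ZNF296. ZNF580 mRNA was at 8.20 and 7.61 CPM and its footprints at 60.9 and 59.1 CPM, a log2 ratio of 3.06 (SE 0.15, adjusted P = 8.33e-11, edgeR). ZNF296 mRNA was at 3.37 and 3.62 CPM and its footprints at 23.5 and 21.6 CPM, a ratio of 2.82 (SE 0.19, adjusted P = 3.73e-09, edgeR). These are 2 of the GC-rich members, at 74.8% and 67.7% in the coding sequence. A per-library correction for coding GC content brought ZNF580 down to 1.67.

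ZNF43, a KRAB zinc finger gene with only 36.8% GC, had the highest ratio, 3.13 (SE 0.36, adjusted P = 1.42e-06, edgeR). Its mRNA counts were low, 25 and 53 reads or 0.720 and 1.24 CPM in dCas9, while its footprints were at 10.4 and 5.79 CPM. Of its 28-base stretches, 32.6% recur in other genes, most often in ZNF681. The part of such shared reads in the ratio was not tested. At 36 h ZNF43 was hardly detected, with 0 to 5 mRNA reads and 0 to 16 footprints in any library.

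**Figure D2:**
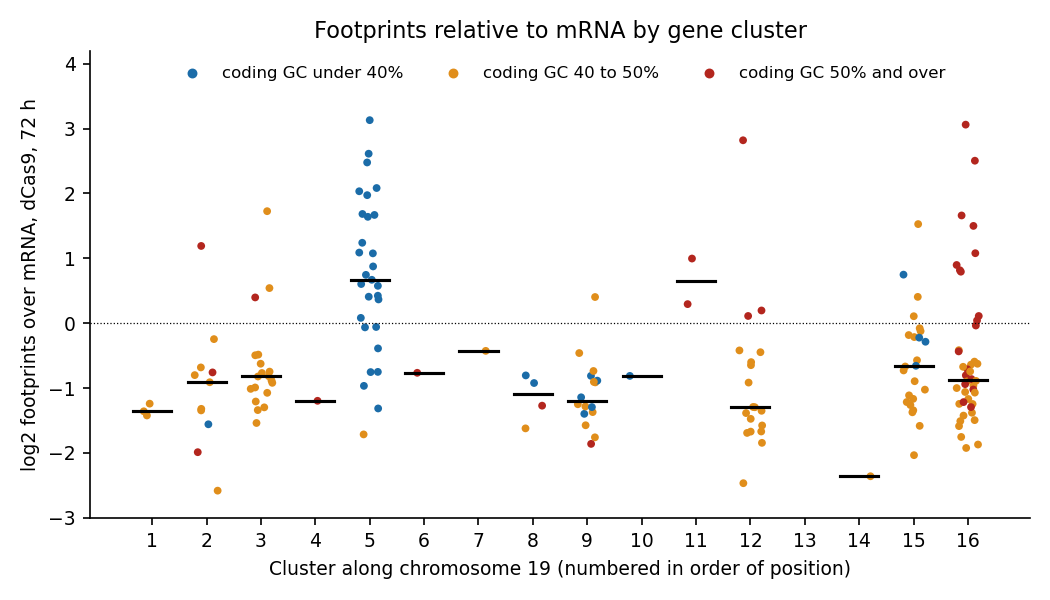
Each point is 1 of the 174 tested members, placed by its cluster along chromosome 19 (x axis) and its log2 ratio of footprints to mRNA in dCas9 at 72 h (y axis), with a bar at each cluster median. Cluster 5 has a median of 0.67, cluster 11, with 2 members, one of 0.65, and clusters 1, 2, 3, 9, 12, 15 and 16 have medians between -1.36 and -0.66.

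The ratio varied along the chromosome. Among all tested genes, 32.7% were increased and 37.8% decreased at 72 h, and 23.6% and 24.6% at 36 h. In cluster 5, the 37 genes from ZNF101 to ZNF254 between positions 19668796 and 24129968, 21 of 29 tested members had a ratio above 0 at 72 h, 13 were increased and 5 decreased, and the median was 0.67. At 36 h only 5 of its members could be tested, 1 lay above 0, 0 were increased and 1 decreased, and the median was -0.37 (edgeR). Cluster 11, with 2 tested members, had a median of 0.65 at 72 h, with 1 increased and 0 decreased. Cluster 16, from ZNF628 to ZNF446 near the end of the long arm, had a median of -0.88, with 8 of 42 tested members increased and 31 decreased. Cluster 12, from ZNF575 to ZNF296, had a median of -1.30, with 1 of 19 increased and 15 decreased, and cluster 9 a median of -1.20, with 0 of 16 increased and 14 decreased.

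Cluster 5 was poor in GC and in counts. Its median coding GC content was 38.01%, and a median of 34.98% of its 28-base stretches recurred elsewhere. Its median mRNA level was 0.451 CPM per kb at 36 h and 1.47 at 72 h, and its median footprint level 0.947 and 2.78. Cluster 13, with 2 genes, was lower in all 4 medians, at 0.431 CPM per kb of mRNA at both times and 0.225 and 0.486 of footprints. Only 16 of its 37 genes reached the count minimum in mRNA at 36 h but 34 did at 72 h, a change in which time, aligner and annotation cannot be told apart.

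Grouped by sequence, the 101 tested members with 40 to 50% GC had the lowest median ratio at 72 h, -1.06, while the other genes of that GC range were at -0.33. The 41 members under 40% were at 0.37 against -0.27 for other genes, and the 32 members at 50% or above were at 0.08 against 0.20. At 36 h the order under 40% was the reverse, with 8 members at -0.29, 1 of them above 0, against -0.06 for other genes. The 139 tested KRAB-like members had a median of -0.82 and the 35 without a match 0.04. Members with 30% or more shared stretches (51 tested) were at -0.06, those with 5 to 30% (65 tested) at -0.92 and those under 5% (58 tested) at -0.95. The part of shared reads in these medians was not tested.

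In mRNA at 72 h, zinc finger genes of chromosome 19 lay higher with Cas9 as a list, but almost no single gene passed the test. Of 217 tested members, 187 had a log2 fold change above 0, and the median was 0.25, against 0.02 over all 13175 genes. The number called at a false discovery rate of 0.1 was 1, a decrease, where 2.11% of all genes were called and 2.09% decreased (edgeR). An unadjusted P under 0.05 was reached by 31 of the 217 members and by 1782 of the 13175 genes, nearly the same share, and DESeq2 called 0 members. With no count minimum, 194 of 232 members were above 0.

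Higher values in all Cas9-to-dCas9 library pairs were found for 105 of the 217 members, or 48.4%, against 23.4% of all genes. The median member was above the median gene in each of the 4 pairs, by 0.42 and 0.32 against dCas9 a and by 0.14 and 0.08 against dCas9 b. The share of counts that went to members followed the same order, 0.428 and 0.408% in Cas9, 0.394% in dCas9 b and 0.347% in dCas9 a. The groups thus did not overlap, but dCas9 b lay closer to the Cas9 libraries than to dCas9 a. The number of members called rose strongly without dCas9 b, as did the share of all genes called. That fit, like the one without dCas9 a, holds a single dCas9 library, so their counts are not given.

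**Figure D3:**
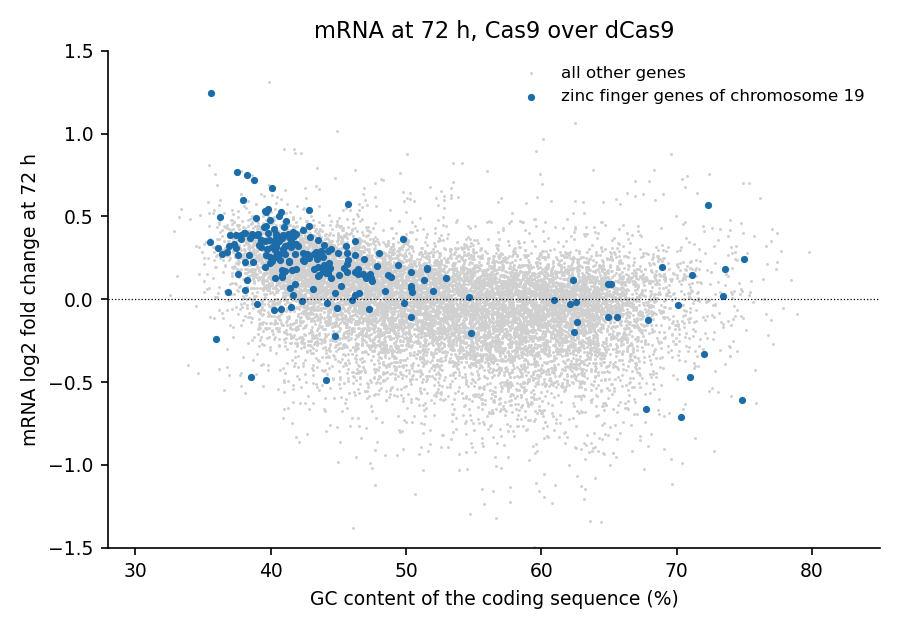
Each point is a tested gene, with the GC content of its coding sequence (x axis) and its fitted log2 fold change in mRNA at 72 h, Cas9 over dCas9 (y axis). All 217 members lie within the axes, which leave out 3 other genes, and 50 of 53 members under 40% GC and 118 of 129 at 40 to 50% lie above 0, within a cloud that itself slopes downward.

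The change in mRNA at 72 h moved with coding GC content. Across the 217 members the rank correlation of log2 fold change and GC content was -0.57, and across all tested genes it was -0.39, a description of genes that share the same 4 libraries. Members under 40% GC had a median of 0.36, and 50 of 53 were above 0. The other genes in that range had a median of 0.25, and 85.3% were above 0. Between 40 and 50% GC the medians were 0.25 for 129 members and 0.10 for other genes, and at 50% or above they were 0.02 for 35 members and -0.06. A correction for GC content in each library lowered the difference between members and all genes from 0.23 to 0.10, and 15 members were then called, 10 increased and 5 decreased, where 16.4% of all genes were called. The ZNF genes of other chromosomes lay 0.05 above all genes and the other genes of chromosome 19 lay 0.08 below.

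By cluster, 31 of 34 tested members of cluster 5 were above 0 with a median of 0.32, 30 of 31 of cluster 15 with a median of 0.31, and 22 of 23 of cluster 9 with a median of 0.33. Cluster 16 had a median of 0.14 with 39 of 51 above 0. KRAB-like members had a median of 0.27 with 160 of 172 above 0, and members without a match 0.14 with 27 of 45 above 0. Members under 5% shared stretches had a median of 0.15 with 54 of 75 above 0, and the part of shared reads in these values was not tested.

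The member called at 72 h was ZNF414, a gene of cluster 2 with 3 fingers and 70.3% GC. Its mRNA stood at 4.70 and 5.04 CPM in Cas9 and at 8.95 and 7.01 CPM in dCas9, and the groups did not overlap. The fitted log2 change was -0.71 (SE 0.18, adjusted P = 0.0993, edgeR), barely past the threshold, and adjusted P was 0.114 with DESeq2 and between 0.000403 and 1.00 over all alternatives. Footprints of ZNF414 were at 14.4 and 18.6 CPM in Cas9 and 15.8 and 17.2 CPM in dCas9, and here the groups overlapped. At 36 h its mRNA fitted log2 change was 0.16 (SE 0.23).

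In mRNA at 36 h, no zinc finger gene of chromosome 19 was called among 194 tested, where 0.0078% of all 12824 genes were called (edgeR). There were 13 members and 577 genes in all at an unadjusted P under 0.05, and DESeq2 called 0 members. The median member lay 0.04 above all genes, and single pairs gave -0.06 to 0.08 with 4 of 6 above 0. Without dCas9 d, 11 members were called, where 4.42% of all genes were.

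The members with the smallest unadjusted P at 36 h were not called. ZNF14 mRNA stood at 8.36, 13.8 and 11.3 CPM in Cas9 and at 5.10 and 8.16 CPM in dCas9, with a fitted log2 change of 0.75 (SE 0.27, adjusted P = 0.998, edgeR). ZNF431 was at 16.9, 23.5 and 26.0 CPM and at 18.6 and 12.1 CPM, groups that overlapped, with 0.53 (SE 0.20, adjusted P = 0.998, edgeR). ZNF235 was at 10.7, 10.3 and 9.05 CPM and at 13.0 and 16.8 CPM, with -0.57 (SE 0.22, adjusted P = 0.998, edgeR). ZNF676 held at most 28 reads in a Cas9 library against 21 and 104 in dCas9, with -2.40 (SE 0.84, adjusted P = 0.962, edgeR), and its groups overlapped. Most of its reads came from the dCas9 library with 104, and its Cas9 mean alone lay below the count minimum. ZNF676 was thus tested because of dCas9, which favours a value below 0, so no fall can be read from it.

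In footprints at 36 h, 0 of 70 tested members and 0% of all 9035 genes were called (edgeR), and DESeq2 called 0 members. No member reached an unadjusted P under 0.05, and only 189 of all 9035 genes did. Fitted values were below 0 for 50 of the 70, with a median 0.18 below all genes, and with no count minimum for 142 of 222, with a median 0.26 below. Lower values in every pair were found for 18 of 70 members, 25.7% against 14.6% of all genes. All 4 pairs gave a median below that of all genes, by 0.38 and 0.27 for Cas9 a and by 0.10 and 0.14 for Cas9 c. The shares of footprint counts were 0.188 and 0.198% in Cas9 and 0.226 and 0.212% in dCas9, and did not overlap. These fits rested on few reads, and the median SE of a member was 0.78.

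ZNF264, a KRAB zinc finger gene, had the smallest unadjusted P among members below 0 in these footprints. It stood at 16.1 and 8.87 CPM in Cas9 and at 26.6 and 34.5 CPM in dCas9, groups that did not overlap, with a fitted log2 change of -1.32 (SE 0.66, adjusted P = 0.999, edgeR). ZNF700 was at 0 and 7.25 CPM in Cas9 and at 11.5 and 28.5 CPM in dCas9, with -2.16 (SE 1.12). The Cas9 mean count of ZNF700 alone lay below the count minimum, so it was tested because of dCas9, which favours a value below 0. Among members above 0, ZNF576 was at 25.8 and 14.9 CPM in Cas9 against 11.7 CPM in dCas9 d and only 2 reads in the shallowest library, dCas9 e, with 1.26 (SE 0.86). ZNF101 was at 22.5 and 8.87 CPM in Cas9 against 8.87 CPM in dCas9 d and 0 in dCas9 e, groups that touched, with 1.45 (SE 1.08).

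In footprints at 72 h, 0 of 176 tested members were called, where 0.0365% of all 10949 genes were (edgeR). There were 7 members and 416 genes in all at an unadjusted P under 0.05, and DESeq2 called 0 members. The median lay 0.03 above all genes, with pairs from -0.09 to 0.13, so that no shift of the list beyond the spread of the pairs was seen.

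ZNF460, the KRAB zinc finger gene whose finger is printed above, came closest to a call in footprints at 72 h. Its footprints stood at 114 and 104 CPM in Cas9 and at 77.0 and 78.6 CPM in dCas9, from 363 to 693 reads, and the groups did not overlap. The fitted log2 change was 0.47 (SE 0.10, unadjusted P = 5.40e-05, adjusted P = 0.118, edgeR). It passed the threshold under 6 of 13 alternatives, among them no count minimum with an adjusted P of 0.0510 (edgeR). ZNF460 mRNA was at 114 and 124 CPM in Cas9 and at 117 and 114 CPM in dCas9, groups that overlapped, with a fitted log2 change of 0.04 (SE 0.12).

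ZNF581, a short gene with 62.4% GC, had footprints at 23.8 and 27.6 CPM in Cas9 and 18.9 and 19.3 CPM in dCas9, with a fitted log2 change of 0.44 (SE 0.19, adjusted P = 1.00, edgeR). Below 0 were ZNF180, at 1.57 and 5.25 CPM against 9.66 and 6.35 CPM with -1.07 (SE 0.42), and ZNF175, at 2.20 and 3.55 CPM against 6.39 and 5.44 CPM with -0.96 (SE 0.43). None of the 3 overlapped between the groups, and none was called. Of the 176 members, 12.5% were higher and 12.5% lower in every pair, against 15.8% and 15.9% of all genes. The lowest ZNF180 value is 5 reads, and in ZNF180 and ZNF175 the Cas9 mean count alone lay below the count minimum.

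**Figure D4:**
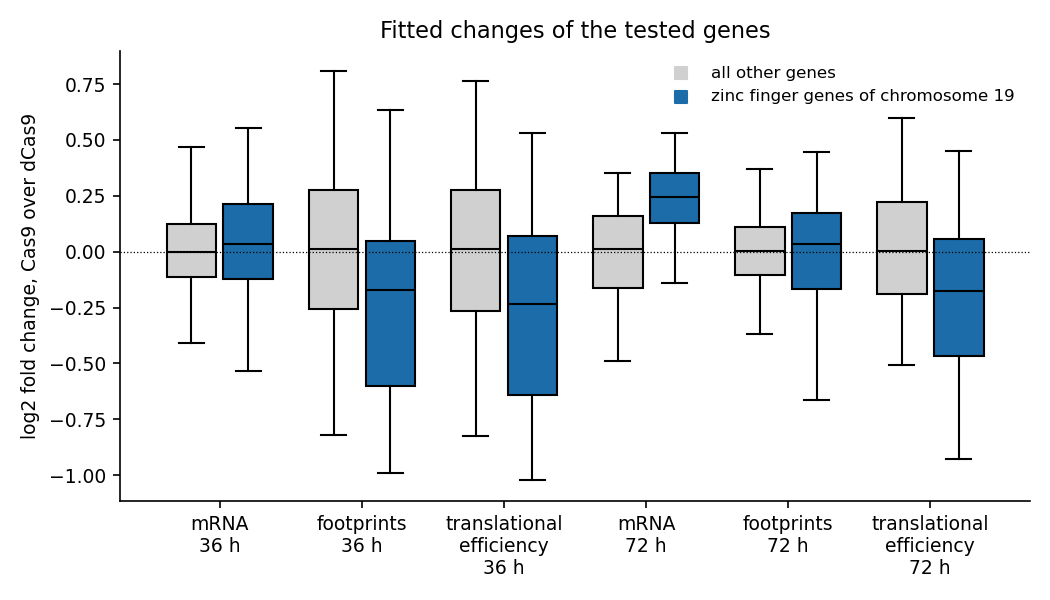
Boxes show the fitted log2 fold change of Cas9 over dCas9 (y axis) for the tested members (blue) and all other tested genes (grey) in each readout and time (x axis). Boxes span the quartiles with a line at the median, and whiskers span percentiles 5 to 95. In mRNA at 72 h the member median is 0.25, and in footprints at 36 h it is -0.17.

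Translational efficiency, the change in footprints relative to the change in mRNA, was tested as an interaction in a fit of both library types. At 36 h, 0 of 70 members and 0% of 9016 genes were called (edgeR), 4 members and 568 genes in all reached an unadjusted P under 0.05, and DESeq2 called 0 members. The median member lay 0.25 below all genes. Without Cas9 footprints a, that difference was -0.10. At 72 h, 0 of 174 members were called, where 0.716% of all 10896 genes were. Of the members, 21 reached an unadjusted P under 0.05, as did 1219 of all genes, DESeq2 called 0 members, and the median lay 0.18 below all genes. With the GC correction this difference was -0.06, and without dCas9 mRNA b it was -0.32 with 14 members called, where 9.77% of all genes were. Translational efficiency uses the same libraries as the mRNA comparison and is no separate evidence of its direction.

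ZNF264 and ZNF121 at 36 h, and ZNF180 and ZNF225 at 72 h, had the smallest unadjusted P below 0, with log2 values of -1.32 (SE 0.43), -0.93 (SE 0.30), -1.39 (SE 0.44) and -1.14 (SE 0.37). Above 0 were ZNF576 and ZNF358 at 36 h, with 1.03 (SE 0.59) and 0.50 (SE 0.33), and ZNF296 and ZNF460 at 72 h, with 0.80 (SE 0.28) and 0.44 (SE 0.16). Adjusted P was 0.235 or higher for each of them (edgeR). ZNF296 mRNA was at 2.08 and 2.34 CPM in Cas9 and at 3.37 and 3.62 CPM in dCas9 at 72 h, while its footprints were at 25.4 and 24.2 CPM and at 23.5 and 21.6 CPM. ZNF225 mRNA was at 16.4 CPM in both Cas9 libraries against 11.5 and 13.7 CPM, and its footprints were at 4.70 and 4.06 CPM against 9.21 and 5.67 CPM. In neither gene did the 2 nucleases overlap in mRNA or in footprints at 72 h. Among all genes, 23.4% were higher and 24.1% lower in every mRNA pair at 72 h, against 48.4% and 4.61% of members. In footprints these shares were 15.8% and 15.9% of all genes, against 12.5% and 12.5% of members. In all 16 pairs of translational efficiency, 5.17% of members were higher and 13.8% lower, against 15.5% and 11.3% of all genes.

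**Figure D5:**
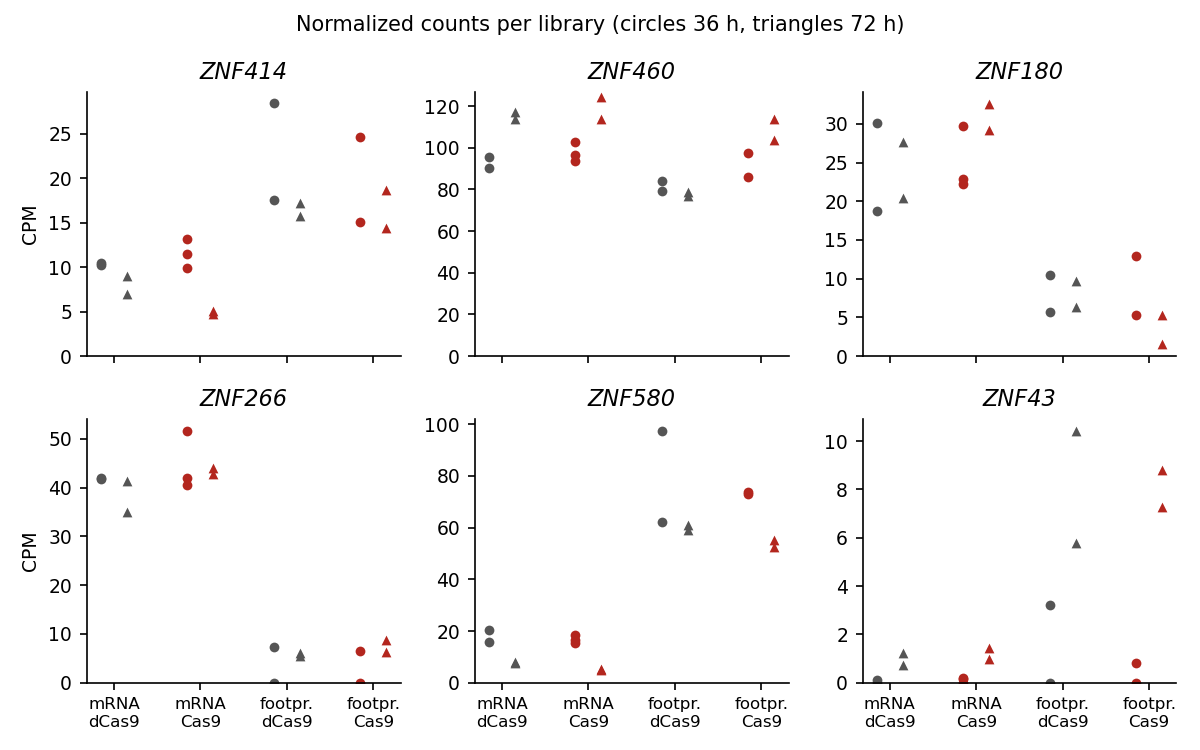
Each point is a library, with the CPM of the member named above the panel (y axis, from 0) by library type and nuclease (x axis), circles for 36 h and triangles for 72 h, red for Cas9 and grey for dCas9. Footprints of ZNF266 lie at or below 8.80 CPM under an mRNA level of 35.1 CPM or more, and those of ZNF580 at or above 52.7 CPM over an mRNA level of at most 20.3 CPM.

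The partners through which KRAB zinc finger proteins repress were read as a list of 15 genes. TRIM28, the scaffold, was above every zinc finger gene of chromosome 19 in mRNA per length, at 425 CPM per kb in dCas9 at 36 h and 348 at 72 h. No partner was called in mRNA or footprints at 36 h, in translational efficiency at 36 h, or in footprints at 72 h, where the 15 ranged from -0.09 to 0.35 (edgeR). In mRNA at 72 h, 2 of 15 were decreased and 0 increased, where 2.09% of all genes were decreased. Of the 15, 11 lay below 0 with a median of -0.27, against 6214 of all 13175 genes with a median of 0.02. MPHOSPH8, the chromatin reader of the HUSH silencing complex, fell by 0.66 (SE 0.16, adjusted P = 0.0833, edgeR), from 51.0 and 64.5 CPM in dCas9 to 32.4 and 40.6 CPM in Cas9. MORC2, an ATPase that acts with HUSH, fell by 0.57 (SE 0.14, adjusted P = 0.0912, edgeR), from 59.3 and 60.0 CPM to 36.0 and 44.5 CPM.

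In translational efficiency at 72 h, 1 of 15 partners was increased, where 0.698% of all 10896 genes were, and this was MPHOSPH8 with 1.02 (SE 0.23, adjusted P = 0.0726, edgeR). Its footprints were at 55.2 and 46.4 CPM in Cas9 and at 37.3 and 41.1 CPM in dCas9. TRIM28 mRNA at 72 h stood at 759 and 748 CPM in Cas9 and at 907 and 796 CPM in dCas9, with a log2 fold change of -0.18 (adjusted P = 0.495, edgeR), and SETDB1, the histone methyltransferase it recruits, was at 0.02 (adjusted P = 0.939, edgeR). Without Cas9 mRNA a, 0 partners were called in mRNA or in translational efficiency at 72 h, and leaving out any 1 of the 4 footprint libraries also left 0 in translational efficiency.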

How the data were processed

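The authors aligned footprint and mRNA reads with hisat2 to GENCODE 22 (36 h) or tophat to GENCODE 25 (72 h), both on GRCh38, and counted them on transcripts with the fp-count tool. The submitters' processing notes name HISAT2 2.1.0. The deposited values are whole-number counts per transcript, without normalization, beside the codons counted. Transcripts were matched by identifier to GENCODE 44 on hg38 (25338 of 26679 at 36 h, 94799 of 98250 at 72 h).

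Groups came from GEO's labels. The nuclease was read from the treatment label where a title says rcas9 (Cas9 footprints, 72 h). No footprints of the replicate Cas9 b at 36 h entered the analysis.

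Footprints and mRNA were fitted separately at each time in edgeR 4.0.16 (R 4.3.3) with TMM factors, a mean count of at least 20, the quasi-likelihood test and Benjamini-Hochberg adjustment over all genes at 0.1. Separate fits were used because a dispersion shared by both library types had given false footprint calls in simulation. Translational efficiency and footprints against mRNA used a joint fit, with both types at a mean of 20 or more. That fit shares its dispersion between the library types, so its calls carry the limit that led to the separate fits. CPM uses TMM library sizes, and pairwise values a prior count of 2. The fits of footprints, mRNA and translational efficiency were tested on simulated data without GC or replicate effects. Footprints against mRNA in dCas9 were not tested in this way.

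Members and lists were chosen with earlier results of these data known. Named genes were, for each comparison of nucleases, up to 3 called members in each direction with the smallest adjusted P and the same direction in every pair, or else 2 uncalled members in each direction with the smallest unadjusted P. The 5 members with the highest mean mRNA per length, the 3 highest and 3 lowest ratios in dCas9 at 72 h, and the partner list were named too. ZNF417 and ZNF587 were named after their values were seen. Alternatives were DESeq2 1.42.0, median-ratio size factors, no count minimum, filterByExpr, the longest transcript, a lowess offset for coding GC, both types in 1 model, the replicate letter as a block, and each library left out.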

Additional observations from a re-analysis of the deposited data

Results flagged for a closer look

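ZNF235, a KRAB zinc finger gene of cluster 12, moved in opposite directions at the 2 time points in mRNA, in all Cas9-to-dCas9 library pairs. At 36 h it stood at 10.7, 10.3 and 9.05 CPM in Cas9 and at 13.0 and 16.8 CPM in dCas9, with a fitted log2 change of -0.57 (SE 0.22, adjusted P = 0.998, edgeR). At 72 h it stood at 13.8 and 13.0 CPM in Cas9 and at 10.9 and 11.02 CPM in dCas9, with 0.29 (SE 0.15, adjusted P = 0.408, edgeR). Neither change was called, the difference between the times was not tested, and guide preparation, aligner and annotation changed with time.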

How the results depend on the processing

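The difference of medians between members and all genes kept its sign under every alternative tried in mRNA at 36 h (0.01 to 0.06) and 72 h (0.10 to 0.38), in footprints at 36 h (-0.32 to -0.12), in translational efficiency at 36 h (-0.33 to -0.10) and 72 h (-0.32 to -0.05), and in footprints against mRNA in dCas9 at 36 h (-0.47 to -0.10) and 72 h (-0.85 to -0.50). In footprints at 72 h it was below 0 under 1 of 13 alternatives (-0.03 to 0.06). The values chosen by the rule for named genes, each in the comparison that chose it, did not change sign under their alternatives. Other values near 0 given for these genes were not refitted.

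Counts of called members depended on the setting, as did the share of all genes called, and the cause was not tested. A larger count alone therefore does not set the members apart from other genes. In mRNA at 72 h the count was 0 with DESeq2, median-ratio size factors or the longest transcript, 4 with no minimum or both types in 1 model, and 15 with the GC offset. In footprints at 72 h it was 1, ZNF460, with no minimum, the GC offset or the longest transcript, and in translational efficiency at 72 h 2 with no minimum and 3 with the GC offset. In footprints against mRNA in dCas9 at 36 h it was 30 of 70 in the main fit, where 48.2% of all genes were called, and 75 of 230 with no minimum. With filterByExpr it was 71, again over more members than in the main fit. The difference of medians there was -0.25 with the GC offset. At 72 h that difference was -0.51 with no minimum, -0.61 with filterByExpr and -0.50 with the GC offset. The number of partners called at 72 h also varied with the setting, as did the share of all genes called. It stayed at or near that of the main fit under only 6 of 15 alternatives in mRNA and 9 of 18 in translational efficiency.

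Leaving out 1 library gave 0 called members in footprints and 0 to 11 in mRNA at 36 h (11 without dCas9 d), 0 to 1 in translational efficiency at 36 h (1 without dCas9 footprints d), 15 to 43 in footprints against mRNA at 36 h, 0 to 3 in footprints at 72 h (3 without Cas9 f), 0 to 94 in mRNA at 72 h (0 without Cas9 a, 2 without dCas9 a, 94 without dCas9 b), 0 to 14 in translational efficiency at 72 h (14 without dCas9 mRNA b, 1 without Cas9 b or dCas9 a) and 124 to 150 in footprints against mRNA at 72 h. The share of all genes called also changed with the library left out, so these counts alone do not set the members apart. With 1 library left out, the differences of medians ranged from -0.32 to -0.12 in footprints at 36 h and from -0.33 to -0.10 in translational efficiency at 36 h. In footprints against mRNA they ranged from -0.47 to -0.10 at 36 h and from -0.85 to -0.58 at 72 h.

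The labels share letters between footprint and mRNA libraries at 36 h and between nucleases at 72 h. The paper describes lysates split between footprints and mRNA, so a shared letter at 36 h may mark the same lysate. Same-letter libraries did not deviate together (correlations of 0.07, 0.03 and 0.01 at 36 h, 0.01 for footprints and -0.15 for mRNA at 72 h). Correlations over so few libraries, some of them shallow, cannot exclude pairing. The main fits left the letter out. At 36 h, the differences of medians in translational efficiency and in footprints against mRNA kept their sign under the replicate block. With the replicate block, 1 member was called in footprints at 72 h (0.0639% of all genes) and 15 in mRNA at 72 h (5.76% of all genes). With the block and the GC offset together, 13 members were called in footprints against mRNA at 36 h (34.5% of all genes), and at 72 h 1 in footprints (0.0639%), 23 in mRNA (23.1%) and 3 in translational efficiency (7.1%). A crossed pairing block, chosen after seeing the data, called 18 members in mRNA (6.18% of all genes) and 1 in translational efficiency (2.29%) at 72 h, and 17 (18.5%) and 2 (4.29%) with the GC offset.

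Depth limited the footprints: at 36 h only 70 of 240 members reached the count minimum.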
